A study of Arabidopsis thaliana with 2 samples.

Results

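A total of 585 DNA regions inside protein-coding genes of Arabidopsis thaliana were bound by both of 2 protein complexes, SEP3Δtet3M-AG and SEP3Δtet-AGΔtet. The regions were chosen by the peak positions themselves: a SEP3Δtet3M-AG peak was included when it overlapped a SEP3Δtet-AGΔtet peak by 1 bp or more and its midpoint lay between the ends of a protein-coding gene. Binding by both complexes and the place inside a gene are thus conditions of the choice and not findings. These 585 regions were 34.8% of the 1681 SEP3Δtet3M-AG peaks and 51.5% of the 1137 SEP3Δtet3M-AG peaks that overlapped the other list. The other 552 overlapping peaks had their midpoints outside protein-coding genes. The assay, seq-DAP-seq, is a DNA affinity purification in successive steps, in which protein complexes produced in vitro retain fragments of purified genomic DNA that are then sequenced. The DNA was genomic DNA of bulk seedlings that were 2 weeks old and had received no treatment, so the complexes met naked DNA and the measurement says nothing about expression or about binding in the plant. Each complex had 1 peak list, with 1681 peaks for SEP3Δtet3M-AG and 2277 for SEP3Δtet-AGΔtet.

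Both complexes carry changes to the tetramerisation of SEP3 with AG. The labels name no plant genotype apart from the complex and give the same complex in the genotype field of both samples, so the groups were taken from the sample titles. What 3M stands for is not explained in the labels. Since the material was DNA, tissue markers could not be checked. The unaltered complex was not analysed here. No library was repeated, the number of reads behind each list is unknown, and the lists carry no score. The values below are therefore counts, distances and medians without a test between the complexes. The intervals given are exact 95% Clopper-Pearson intervals that cover the counting of genes or peaks only.

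SEPALLATA3 (SEP3) and AGAMOUS (AG) belong to the MADS-domain family of plant transcription factors. In flowers they act together in specifying stamens and carpels and in ending the growth of the floral meristem. MADS-domain dimers recognise short A- and T-rich elements called CArG boxes, and a pair of dimers can join as a tetramer that holds a pair of such elements on a loop of DNA. Members of the family are known to bind their own genes and each other's, including at sites inside the transcribed gene.

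The 585 regions lay in 583 protein-coding genes, 2.12% of the 27444 in the gene table (95% interval 1.96 to 2.3). Peaks found with SEP3Δtet3M-AG alone lay inside 293 genes (1.07%), and those found with SEP3Δtet-AGΔtet alone lay inside 475 genes (1.73%). Because 3 regions had their midpoint in a pair of overlapping genes, there were 588 pairs of a region and a gene. These 3 lay in SRO2 with AT1G23560, in AT1G70650 with MMZ2 and in CIB1 with AT4G34540. The carrying genes were spread over all 5 nuclear chromosomes, from 1.94% of the genes on chromosome 5 to 2.27% on chromosome 4. Of the regions, 18 (3.08%) lay in 500-kb windows with few genes, where 3.81% of all protein-coding genes lie. The whole 400-bp peak lay within 1 gene at 472 of the 585 regions (80.7%), and at the other 113 it reached past at least 1 gene end. At 7 regions the midpoint also lay in a gene of another type, 6 times a long noncoding RNA and once an antisense RNA.

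The MADS-box genes held 12 of the regions. Of 98 genes with a MADS-box symbol in the gene table, 11 carried at least 1 shared region inside the gene (11.2%, 95% interval 5.74 to 19.2), beside 2.12% of all protein-coding genes. Per length of gene sequence this came to 56.2 peaks per Mb in the family and 8.98 per Mb over all protein-coding genes. Of all genes with a symbol, 2.77% carried a shared region, and their density per Mb was not computed. All 11 belong to the MIKC class, the branch of the family that includes SEP3 and AG, and none to the type I class. The 98 genes were not counted by class, so neither class has a share to set beside this. Their median length was 1508 bp, and the 11 carriers were 2175 to 5684 bp long. A difference between the classes was not tested. The SEP3Δtet3M-AG list alone held a peak inside 2 further MADS-box genes, CAL and AP1, which act in floral meristem identity. The SEP3Δtet-AGΔtet list alone held one inside 3 others, AGL94, AGL79 and AGL8.

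Among the floral organ identity genes, AG and AP3 carried a region. PI, AP1 and the SEP genes, SEP3 included, were not among the 11 carriers. In AG, the gene of one of the proteins assayed, the peak lay at chromosome 4, 10386353 to 10386752 with SEP3Δtet3M-AG and at 10386343 to 10386742 with SEP3Δtet-AGΔtet. Its midpoint was 1987 bp from the nearer end of the 5684-bp gene, the largest such distance among the 11 MADS-box genes. AP3, which specifies petals and stamens, held its region at the opposite extreme, 68 bp inside a gene end (chromosome 3, 20121047 to 20121446 with SEP3Δtet3M-AG and 20121041 to 20121440 with SEP3Δtet-AGΔtet). The AP3 peak crossed the gene end, whereas the AG peak lay wholly inside.

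Several MADS-box carriers are known for setting the time of flowering. SVP, a repressor of flowering, carried its region 511 bp inside the gene (chromosome 2, 9579958 to 9580357), with the midpoints of the complexes 14 bp apart. AGL24, the closest relative of SVP and a promoter of flowering, carried it 1114 bp from the nearer end (chromosome 4, 12672793 to 12673192), with midpoints 17 bp apart. In AGL31, a repressor related to FLC, the region lay 406 bp inside the gene (chromosome 5, 25982460 to 25982859) and the midpoints were 9 bp apart. AGL19 and AGL14, which belong to the clade of the flowering promoter SOC1, carried regions 1393 bp and 1281 bp from the nearer end. The AGL19 midpoints, at 2 bp, were the closest of the group.

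The remaining carriers were 2 genes of the AGL17 clade, AGL18 and AGL30. AGL16, of that clade, was the only MADS-box gene with 2 regions. They lay 153 bp and 962 bp from the same gene end (chromosome 3, 21177235 to 21177634 and 21178044 to 21178443), each with a SEP3Δtet-AGΔtet peak of its own, 5 bp and 14 bp away. AGL17 itself carried a region 850 bp inside the gene, with midpoints 6 bp apart. AGL18, which represses flowering together with AGL15, carried its region 137 bp inside, and the peak extended past the gene end. AGL30, a pollen gene of the MIKC* group, carried it 231 bp inside, and its midpoints were 24 bp apart, the widest spacing among the 12. The positions of these 12 regions therefore ranged from the gene ends to the interior, while in each of them both complexes gave a peak at nearly the same place.

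**Figure D1:**
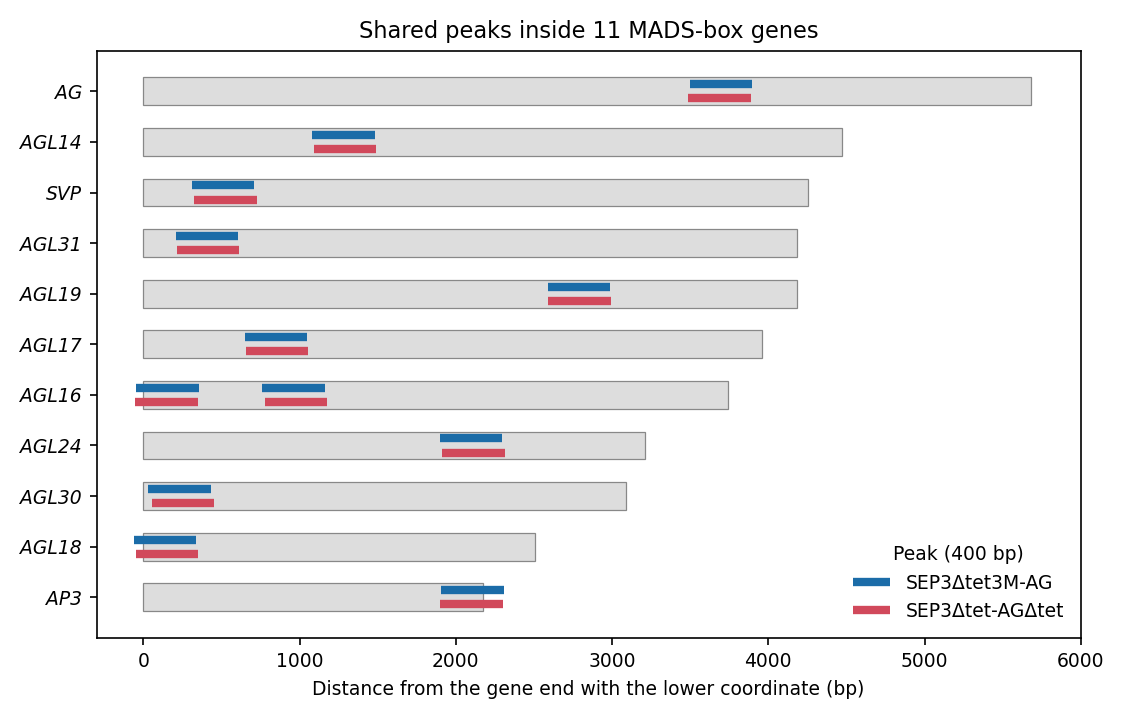
Positions of the shared peaks in the 11 MADS-box genes that carry them. Each grey bar is a gene drawn to its length in bp from the end with the lower coordinate (the gene table has no strand), and the coloured bars are the 400-bp peaks of SEP3Δtet3M-AG (blue) and SEP3Δtet-AGΔtet (red). In every gene the peaks of the 2 complexes nearly coincide, 2 to 24 bp apart at their midpoints, and AGL16 has 2 such places.

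The close spacing seen in the MADS-box genes held over the whole set. The median distance between the midpoints of the complexes was 9 bp over the 585 regions (quartiles 4 and 16 bp, range 0 to 370 bp). The rule itself allows any distance under 400 bp. Midpoints were at most 20 bp apart at 504 regions (86.2%, 95% interval 83.1 to 88.8) and at most 50 bp apart at 567 (96.9%). They were identical at 10 regions, among them those in UGT78D2, a flavonoid glucosyltransferase gene, and in GLR3.6, a glutamate receptor-like channel gene. The shared peaks outside genes had nearly the same spacing, with a median of 8 bp and 83.7% at most 20 bp apart. Neither direction prevailed, and the SEP3Δtet-AGΔtet midpoint lay at a median of 1 bp towards higher coordinates (quartiles -8 and 9 bp). The midpoint of the SEP3Δtet-AGΔtet peak fell in the same gene at 583 of the 585 regions. The exceptions, AT2G31810 and AT5G25580, had the SEP3Δtet3M-AG midpoint 0 and 14 bp from a gene end.

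**Figure D2:**
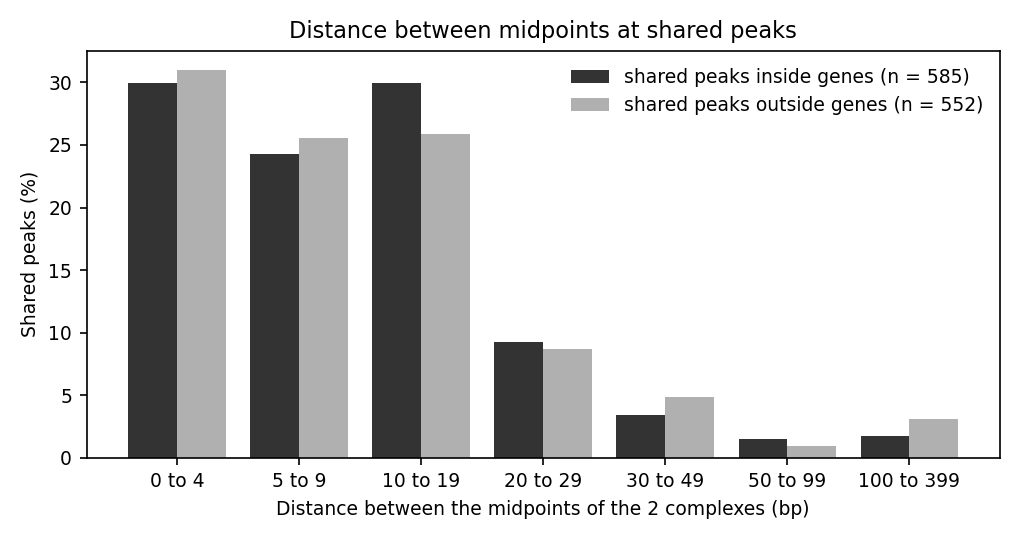
Distance between the midpoints of the SEP3Δtet3M-AG and SEP3Δtet-AGΔtet peaks at shared peaks, in bp (horizontal axis, bins of unequal width), against the percentage of shared peaks (vertical axis). Black bars are the 585 shared peaks inside protein-coding genes and grey bars the 552 outside them. In both sets most peaks lie in the bins under 20 bp, and 1.71% and 3.08% lie at 100 bp or more.

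The overlap limit decided few regions and the gene-end limit more. Only 5 of the 585 (0.855%) overlapped by less than 200 bp. The smallest overlaps were 30 bp in CSI1, 46 bp in QUL1 and 52 bp in AT1G66780. In each of these genes a second SEP3Δtet3M-AG peak overlapped the same SEP3Δtet-AGΔtet peak by 390 bp or more. Counting only the partner with the largest overlap, the 585 regions thus matched 582 different SEP3Δtet-AGΔtet peaks. A further SEP3Δtet-AGΔtet peak overlapped 1 of the regions. Just beyond the overlap limit, the nearest peaks of the lists that did not touch were 83 bp apart in AT5G60142, 121 bp in DIN11 and 337 bp in AT4G05360. At gene ends, 60 of the 588 pairs of region and gene had a midpoint less than 100 bp inside. The midpoints nearest inside a gene end were those in AT1G03280 and AT2G31810 at 0 bp and in 4CL2, a gene of lignin precursor synthesis, at 3 bp. Shared peaks just outside a gene lay 3 bp from FZR2, 3 bp from MPK18 and 10 bp from AT5G64790.

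In 5 genes there were 2 regions each. These were AGL16, AT1G55270 and the 3 genes with the smallest overlaps. AT1G55270 resembled AGL16 in that each region had its own SEP3Δtet-AGΔtet peak, 10 bp away at chromosome 1, 20618233 to 20618632, and 2 bp away at 20619506 to 20619905. In CSI1, which links cellulose synthase to microtubules, the SEP3Δtet3M-AG peaks lay at chromosome 2, 9406274 to 9406673 and 9406637 to 9407036, and thus overlapped each other. Besides their shared region, 5 of the 583 genes held a further peak of SEP3Δtet3M-AG alone and 15 held one of SEP3Δtet-AGΔtet alone. The former included SEC8, PEPKR1 and DIN11, and the latter HAC1, RAP2.7, PYL1, CAT3 and SWEET2. These were chosen for mention after their values were seen.

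The carrying genes had a median length of 2987 bp (quartiles 2177 and 3893.5 bp), beside 2078 bp for all protein-coding genes (quartiles 1323 and 3030 bp). Genes with a peak of SEP3Δtet3M-AG alone had a median of 3132 bp and those with a peak of SEP3Δtet-AGΔtet alone one of 3033 bp, so long genes were common in all 3 classes. A longer gene has more places where a midpoint can fall, and the share of genes carrying a shared region was larger in each successive class when genes were split by length into 5 equal classes. It was 0.419% in class 1, with genes up to 1146 bp, 1.11% in class 2, 1.71% in class 3, 3.3% in class 4 and 4.08% in class 5, with genes of 3310 bp or more.

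Per Mb of gene sequence the differences were smaller and did not follow length throughout. The density was 5.72 shared peaks per Mb in class 1, 7.5 in class 2, 8.31 in class 3, 11.8 in class 4 and 8.59 in class 5. Class 4, with genes of 2403 to 3310 bp, thus held the most shared peaks for its length. Peaks of SEP3Δtet3M-AG alone had 4.15 per Mb in that class and 5.25 in class 3, and peaks of SEP3Δtet-AGΔtet alone had 7.45 and 7.70. Whether this high point differs from chance was not tested.

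**Figure D3:**
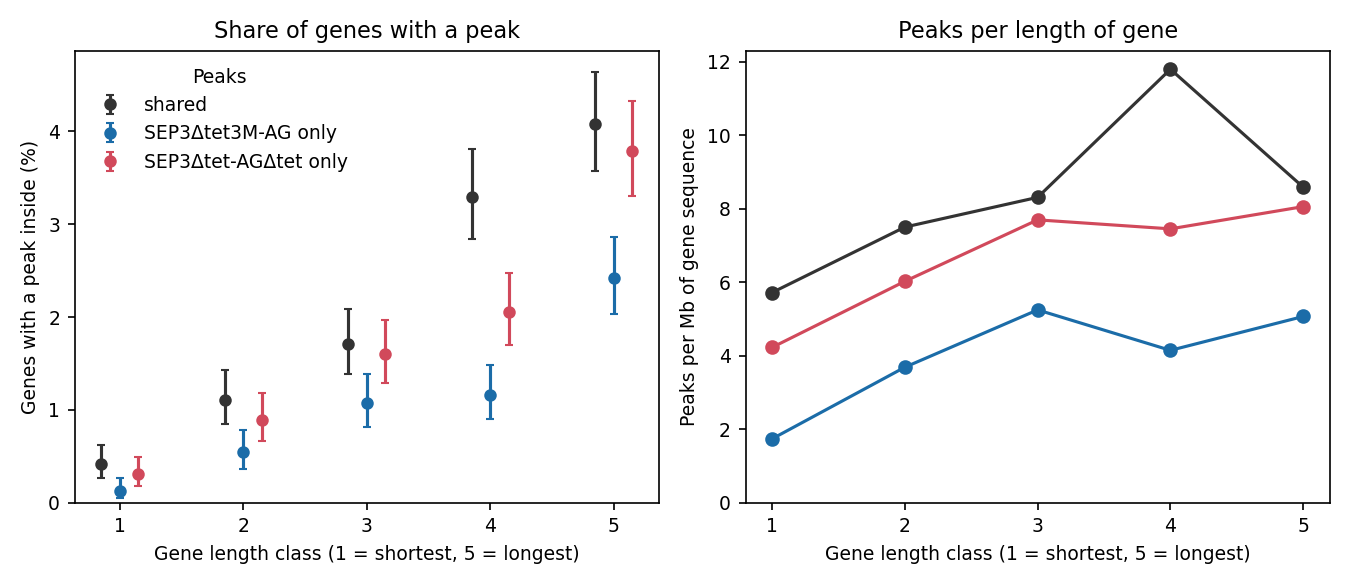
Gene length and peaks inside genes, by 5 equal length classes of the 27444 protein-coding genes (class 1 is the shortest). The left panel gives the percentage of genes with a peak midpoint inside, with exact 95% intervals as bars, and the right panel the peaks per Mb of gene sequence, for shared peaks (black) and peaks of 1 complex alone (blue and red). The share of carrying genes is 0.419% in class 1 and 4.08% in class 5 for shared peaks, while their density is highest in class 4, at 11.8 per Mb.

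The extremes of length show how the peaks sat in short and long genes. The shortest carrying gene was AT3G51210, at 316 bp shorter than the peak itself. It was followed by AT3G20850 at 588 bp, AT4G19095 at 633 bp, RALFL31 at 752 bp and AT3G01230 at 781 bp, RALFL31 being a gene for a small signalling peptide. In AT3G20850 and AT3G01230 the peak still lay wholly within the gene. The longest was SAB at 14681 bp, a gene needed for cell expansion, with the region 6069 bp from the nearer end (chromosome 1, 21592929 to 21593328). AT1G02080 followed at 13579 bp, then SECA2, of chloroplast protein translocation, at 11566 bp, SDG2, a histone methyltransferase, at 11182 bp, and MYA2, a myosin, at 10558 bp. The midpoints of the complexes were 2 to 6 bp apart in these 5 long genes.

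Along the gene, the regions were found throughout, with fewer per length far from both ends. Because the gene table gives no strand, exons or untranslated regions, position is given as the distance from the midpoint to the nearer gene end. The median distance was 585.5 bp (quartiles 267.75 and 974 bp, largest 6069 bp), or 20.7% of the gene's length. In the first 100 bp from a gene end the density was 10.96 shared peaks per Mb of gene sequence, and between 500 and 1000 bp it was 10.8 per Mb. It was 5.96 per Mb between 1500 and 2000 bp and 4.32 per Mb at 2000 bp or more. Midpoints lay within 1000 bp of a gene end for 76.0% of the pairs of region and gene, and an even spread along the same genes would give 68.7%. Within 250 bp the values were 23.8% and 19.4%.

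Peaks found with 1 complex alone also lay near gene ends more often than an even spread along their genes would give. Within 250 bp these values were 25.4% and 18.9% for SEP3Δtet3M-AG alone and 26.3% and 19.0% for SEP3Δtet-AGΔtet alone. Peaks of SEP3Δtet3M-AG alone had 6.03 per Mb in the first 100 bp and 4.32 at 2000 bp or more, and those of SEP3Δtet-AGΔtet alone had 12.4 and 6.0. Of the shared set, 14.3% of pairs had their midpoint in the central 20% of the gene (95% interval 11.6 to 17.4), beside 15.3% (11.3 to 19.9) and 19.9% (16.4 to 23.8) of the peaks of SEP3Δtet3M-AG and SEP3Δtet-AGΔtet alone. These intervals overlap. In the shortest length class the median distance of shared peaks to the nearer end was 175 bp, and in the longest it was 777 bp.

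**Figure D4:**
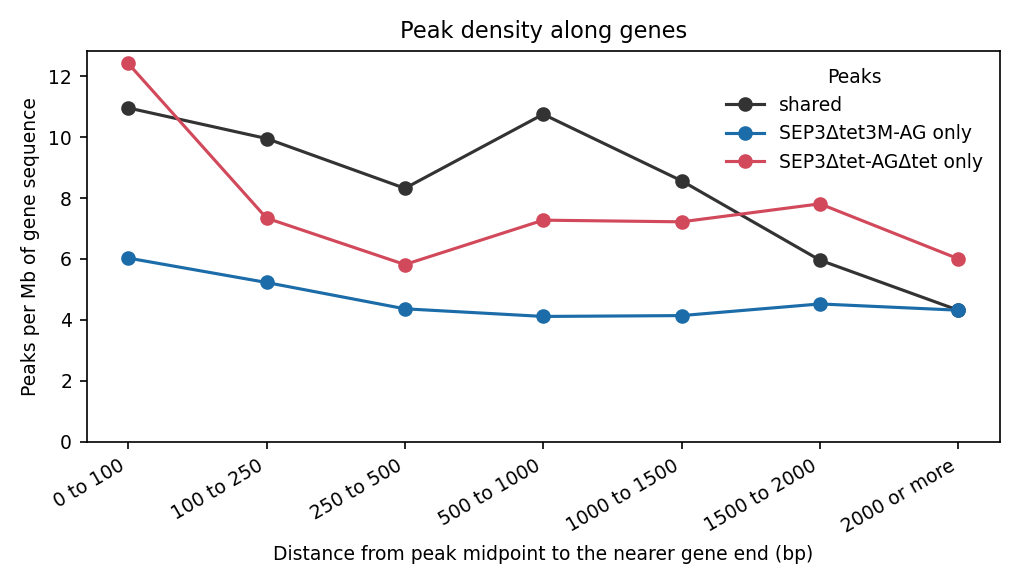
Density of peaks inside protein-coding genes by distance from the peak midpoint to the nearer gene end (horizontal axis, bp, bins of unequal width), in peaks per Mb of gene sequence at that distance (vertical axis). Black is shared peaks, blue SEP3Δtet3M-AG alone and red SEP3Δtet-AGΔtet alone. Shared peaks lie between 8.32 and 10.96 per Mb up to 1500 bp and at 4.32 per Mb at 2000 bp or more.

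The 15 transcription factor families matched by symbol held 46 carriers among 797 genes (5.77%, 95% interval 4.26 to 7.62). Without the MADS-box genes the count was 35 of 699 (5.01%, 95% interval 3.51 to 6.90). Families were found through gene symbols, so members without a family symbol were missed and the counts do not cover whole families. Named genes carried shared regions more often than the rest, 2.77% of 10374 genes with a symbol and 1.73% of 17070 without one. The share of 2.77% is therefore the nearer background for every family and list, the MADS-box genes included. Densities per Mb stand beside that of all protein-coding genes only, since none was computed for genes with a symbol. No test was made of any family, and their sizes leave wide intervals. Carriers from the larger families were mostly named for having the closest midpoints, so their distances do not describe the whole family.

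The bHLH family had 10 carriers of 72 (13.9%, 95% interval 6.87 to 24.1), or 62.5 peaks per Mb. With synonyms also matched, it had 10 of 89 (11.2%, 95% interval 5.52 to 19.7), or 49.7 peaks per Mb. Peaks of SEP3Δtet-AGΔtet alone lay inside 1 other bHLH gene and peaks of SEP3Δtet3M-AG alone inside none. Light signalling was represented by PIF3, PIF4 and PIL6 (also called PIF5), which encode factors that bind phytochrome. Their regions lay 1148, 571 and 687 bp from the nearer gene end, and the midpoints were 9, 10 and 9 bp apart. In PIF4 the SEP3Δtet3M-AG peak lay at chromosome 2, 17886472 to 17886871.

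Further bHLH carriers act on flowering and organ formation. FBH2 and FBH3, activators of the photoperiod gene CONSTANS, carried regions 712 and 749 bp from a gene end, with midpoints 3 and 10 bp apart. CIB1, a partner of cryptochrome that promotes flowering, carried its region 798 bp from an end, in a part of the gene that AT4G34540 overlaps. HEC3, of carpel development, held a region 257 bp inside a gene of 1006 bp. GL3, of trichome formation and anthocyanin synthesis, held one 256 bp inside, with midpoints 1 bp apart (chromosome 5, 16529146 to 16529545). BEE3, which responds to brassinosteroid, and PYE, a regulator of the iron-deficiency response, were the other carriers found by symbol, at 424 and 186 bp from an end.

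NAC genes numbered 6 carriers of 81 (7.41%, 95% interval 2.77 to 15.4). The 4 with the closest midpoints were NAC004 and NAC075 at 1 bp and NAC076 and NAC083 at 4 bp. NAC076 promotes formation of xylem vessels and NAC083 encodes a repressor that acts on the same pathway. In all 6 the region lay between 30.8% and 38.6% of the gene length from the nearer end, a narrow range that was seen in the data and was not tested. NAC003 and NAC004 are neighbouring, related genes on chromosome 1.

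The AP2/ERF family had 5 carriers of 56 (8.93%, 95% interval 2.96 to 19.6). CBF2 and DREB1A (also called CBF3), neighbouring activators of the cold response, carried regions 163 and 325 bp from a gene end (chromosome 4, 13015213 to 13015612 and 13018135 to 13018534). Their midpoints were 4 and 19 bp apart. RAP2.7 (also called TOE1), a repressor of flowering, carried its region 899 bp from an end, with midpoints 21 bp apart, and held a further peak of SEP3Δtet-AGΔtet alone. ERF7 carried its region 237 bp from an end.

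The other transcription factor families had at most 2 carriers each, and they include the largest by symbol, MYB. Homeobox and WRKY had shares of 1.23% and 1.49% by symbol, beside 2.77% of all genes with a symbol. MYB had 2 of 116 (1.72%), MYB33, an activator in anther development, and MYB27, whose midpoints were 205 bp apart. GATA had ZML1 and GATA11 of 26 (7.69%), and NF-Y had NF-YA8 and NF-YA2 of 35 (5.71%). The B-box genes had BBX21, of light signalling, and COL9, which delays flowering, of 29 (6.90%). The B3 and ARF group had 2 of 38 (5.26%), FUS3, a regulator of seed maturation, and HSI2, a repressor of the seed programme. A single carrier was found by symbol in each of WRKY (WRKY53 of 67, or 2 of 71 when synonyms added TTG2), homeobox (HB22 of 81), bZIP (ABI5 of 47) and TCP (TCP12 of 17). Peaks of 1 complex alone lay inside 3 and 5 homeobox genes. SPL and GRAS had none, of 16 and 19 genes, which allows shares of up to 20.6% and 17.6%. HB22 falls outside the rule for naming genes and was added after its value was seen.

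Apart from the comparison families, gene families other than transcription factors had shares from 2.5% to 20%, several of them from few genes. Several shares were near the 2.77% of all genes with a symbol. These were cytochrome P450 (3.20%), ABC transporter (3.23%), UDP-glycosyltransferase (3.45%), and sugar and amino acid carrier genes (2.70%). Auxin-response genes and cysteine-rich receptor-like kinases, at 2.5% each, were near it too. By symbol, cytochrome P450 genes had 7 carriers of 219 (3.20%, 95% interval 1.29 to 6.47). With synonyms, which added TT7, they had 8 of 234 (3.42%). Among those found by symbol, the closest midpoints were in CYP98A3, of lignin synthesis, at 2 bp, CYP81D5 at 4 bp and CYP71A19 at 8 bp. CYP707A1, which breaks down abscisic acid, followed at 14 bp, and the widest distance was 48 bp, in CYP721A1. The CYP81D5 midpoint lay 29 bp from a gene end. Cell wall genes had 8 carriers of 159 (5.03%, 95% interval 2.197 to 9.67), led in closeness of midpoints by XTH28 at 1 bp, GH9B7 and EXP3 at 4 bp and CSLC5 at 10 bp. These encode a xyloglucan-modifying enzyme, a glucanase-like protein, an expansin and a glucan synthase.

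Receptor-like proteins had 5 carriers of 52 (9.62%, 95% interval 3.20 to 21.0). Their midpoints were 1 bp apart in RLP28, 2 bp in RLP20, 5 bp in RLP27, 18 bp in RLP23, an immune receptor, and 25 bp in RLP24. Peaks of SEP3Δtet-AGΔtet alone lay inside 5 receptor-like protein genes as well. RLP24, RLP27 and RLP28 lie near one another on chromosome 2 and resemble each other, and the sources used here do not say how reads matching several places were handled. The same uncertainty holds for NAC003 with NAC004, CBF2 with DREB1A, PUM9 with PUM10 and UGT78D2 with AT5G17040. These stand among 17 pairs of neighbouring or overlapping carriers.

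Transport genes included 4 ABC transporters of 124 (3.23%, 95% interval 0.886 to 8.05), ABCA8, ABCG7, the auxin transporter ABCB4, and ABCG28. Their midpoints were 4, 5, 21 and 33 bp apart. ABC transporter genes are long, with a median of 4609 bp. Per length they held 6.99 peaks per Mb, fewer than the 8.98 over all protein-coding genes. The nitrate transporters NRT1.7, of phloem, and NRT1.5, of xylem loading, were 2 carriers of 12 genes (16.7%, 95% interval 2.09 to 48.4). The sugar and amino acid carriers had SWEET2 and UMAMIT17, 2 of 74 (2.70%). Glutamate receptor-like genes had GLR3.6 and GLR2.3, 2 of 16 (12.5%, 95% interval 1.55 to 38.3), at 146 and 125 bp from a gene end.

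By symbol, further families had 2 carriers each. UGT78D2 and UGT72E1 were 2 of 58 UDP-glycosyltransferases (3.45%). AT5G17040, the neighbour of UGT78D2 that also carried a region, has no symbol and was not counted in any family. BGLU45 and BGLU24 were 2 of 40 beta-glucosidases (5%, or 4 of 47 when synonyms were also matched). The others were scpl30 and scpl29 of 49 serine carboxypeptidase-like genes (4.08%), PUM9 and PUM10 of 25 PUM RNA-binding protein genes (8%), and IQD5 and iqd32 of 33 IQ-domain genes (6.06%). Single carriers, named after their values were seen, were IAA9 of 40 auxin-response genes (2.5%) and CRK12 of 40 cysteine-rich receptor-like kinases (2.5%). Another was PUB43 of 22 PUB ubiquitin ligases (4.55%, or 2 of 23 with synonyms). Of the comparison families, ribosomal protein genes had 1 carrier of 39 (2.56%), RPS13A, and photosystem and light-harvesting genes had none of 30, which allows up to 11.6%.

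Genes of known roles were also counted with 13 lists of pathway genes. The lists were chosen with earlier results of these data known, so their shares and intervals are descriptions and were not tested. Among 60 genes of flower, fruit and meristem development other than MADS-box genes, 9 carried a shared region (15.0%, 95% interval 7.10 to 26.6), or 58.4 peaks per Mb. They covered organ polarity (YAB3), the boundary gene BOP2, the carpel gene HEC3, the anther genes MYB33 and MS1, the co-repressor SLK2, the branching gene TCP12 and the meristem genes FAF2 and FAF4. In BOP2 the region lay near the centre of the gene, 1421 bp from the nearer end of 2883 bp (chromosome 2, 17238989 to 17239388), and the midpoints were 1 bp apart. SLK2 and FAF2, by contrast, held it 79 and 129 bp inside an end.

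Flowering-time genes other than MADS-box genes had 6 carriers of 50 (12%, 95% interval 4.53 to 24.3). Besides CIB1, FBH2, FBH3 and RAP2.7 these were ATC, a repressor related to TFL1, and VEL1, a relative of the vernalisation gene VIN3. Their regions lay 527 and 216 bp from a gene end. Light signalling and clock genes had 5 of 47 (10.6%, 95% interval 3.55 to 23.1). These were the 3 phytochrome-binding factors above, BBX21 and PCL1 (also called LUX), of the evening complex of the clock, whose region lay 1324 bp from an end with midpoints 7 bp apart.

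Jasmonate genes had 5 carriers of 32 (15.6%, 95% interval 5.28 to 32.8). LOX6 and AOC4 act in its synthesis, JAZ6 and JAZ12 encode repressors of the response, and NINJA encodes the adaptor that joins JAZ proteins to co-repressors. In JAZ12 and NINJA the midpoints were 1 bp apart, and in JAZ6 2 bp. The abscisic acid list had 5 of 47 (10.6%), the receptor PYL1, the catabolic enzyme CYP707A1, and the regulators ABI5, FUS3 and HSI2. PYL1 held its region 45 bp inside a gene end, ABI5 637 bp inside.

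The remaining hormone lists had fewer carriers. They were GA3OX2, which makes active gibberellin, and GASA4 among 35 gibberellin genes (5.71%). RR5 and RR3 (the latter also called ARR8), feedback repressors of the response, carried regions among 40 cytokinin genes (5%). EIN3, the master regulator of the response, did so among 23 ethylene genes (4.35%).

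Chromatin and DNA methylation genes had 9 carriers of 59 (15.3%, 95% interval 7.22 to 27.0). These genes are long, with a median of 5758 bp. Per length they held 25.6 peaks per Mb, beside 8.98 over all protein-coding genes. In the bHLH family the density was 62.5 per Mb by symbol and 49.7 with synonyms. The carriers were the histone acetyltransferase genes HAC1 and HAC5, the methyltransferase gene SDG2, the histone-binding gene NFC5 (also called MSI5), the histone chaperone gene HIRA, DRM3, of RNA-directed DNA methylation, the Dicer-like gene DCL2, the DNA demethylase gene DML3 and MBD9. In HIRA the midpoint lay 7 bp inside a gene end, and in MBD9 2992 bp inside.

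The anthocyanin, seed coat and trichome list had 4 of 30 (13.3%, 95% interval 3.76 to 30.7). TT7 and UGT78D2 encode enzymes that hydroxylate and glycosylate flavonoids, and TTG2 and GL3 encode regulators. The UGT78D2 peaks of both complexes had the same position, chromosome 5, 5608573 to 5608972. Immune genes had 6 of 45 (13.3%, 95% interval 5.05 to 26.8), which were RLP23, MEKK1, RIN4, DMR6, MLO12 and WRKY53. The cold list had CBF2 and DREB1A of 20 (10%). None of 24 housekeeping and photosynthesis genes carried a shared region, which allows a share of up to 14.2%.

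**Figure D5:**
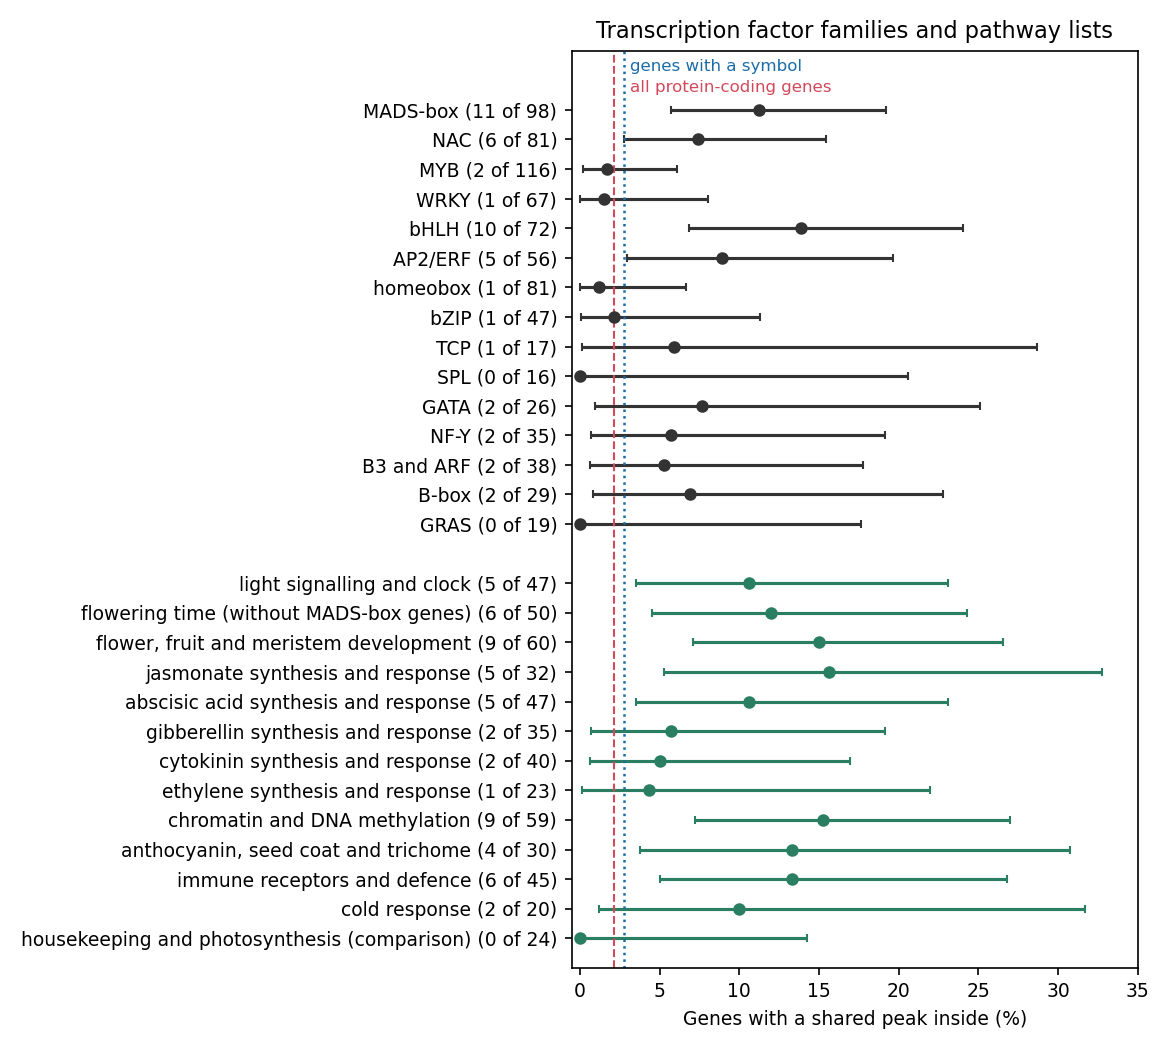
Percentage of genes with a shared peak inside (horizontal axis) in 15 transcription factor families found by symbol (black) and 13 pathway lists (green), with exact 95% intervals as bars that cover the counting of genes only. The dashed line is the 2.12% of all protein-coding genes and the dotted line the 2.77% of genes with a symbol. Among the families the intervals of MADS-box, bHLH and AP2/ERF lie above both lines and that of NAC starts at the dotted one. Families and lists were chosen with earlier results of these data known, and their distance from the lines was not tested. With synonyms also matched, the lower limits are 2.23% for NAC and 2.47% for AP2/ERF, and a zero count still allows up to 20.6% in SPL.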

How the data were processed

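The deposited files hold peak positions in bp (chromosome, start, end), made by the authors with Bowtie2, SAMtools and MACS2 per the submitters' processing notes, which give no versions. The sources used here do not give peak-calling settings, genome build, read depth or any pooling. Every deposited peak is 400 bp wide. Peaks were overlapped with each other and with the 27444 protein-coding genes of the RefSeq TAIR10.1 gene table, which holds no strand or exons, in Python 3.11.15 with pandas 2.3.3, numpy 2.4.6 and scipy 1.17.1. The code was tested on simulated peaks. Printed peak coordinates count from 1 and are those of the SEP3Δtet3M-AG peak unless both are given.

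Families were 34 sets of gene symbols, less 20 genes that share a symbol pattern with an unrelated family. Families planned but not counted included C2H2 zinc finger, DOF, F-box and disease resistance genes. Of the kinases, only the cysteine-rich receptor-like kinases were counted as a family. Pathway lists held 530 names, of which 512 matched. The regions, families and lists were chosen with earlier results of these data known, so their counts are descriptions and were not tested. Genes named were all MADS-box carriers, up to 4 carriers with the closest midpoints in each family with at least 2, genes with 2 regions, the 5 longest and 5 shortest carriers, those nearest the limits, and carriers on the pathway lists. PYE, NAC003, RLP24 and the genes of overlapping or neighbouring pairs were named after their values were seen. Alternatives were other overlap limits, the other list's midpoints, whole peaks inside genes, merged peaks, omission of windows with few genes, and, added after the data were seen, families found by symbols and synonyms. Sequence was not used here, so the planned count of CArG boxes was not made.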

Additional observations from a re-analysis of the deposited data

How the results depend on the processing

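The setting with the largest effect on counts was the whole peak inside the gene, and no count changed by more than 1.5 times under any of the settings run on the counts of regions, carrying genes and all family members together. The number of regions ran from 472 when the whole peak had to lie inside 1 gene to 583 with midpoints from the SEP3Δtet-AGΔtet list, and the carrying genes from 471 to 584. The median gene length ran from 2972 to 3084 bp, and the median midpoint distance stayed at 9 bp under all 6 planned settings. The one value that moved was the median distance to the nearer gene end, 25.9% of gene length when the whole peak had to lie inside the gene. That setting by its construction leaves out midpoints within 200 bp of an end. Family members carrying a region numbered 94, and 80 to 100 under the alternatives. The number was highest with synonyms, an alternative added after the data were seen. Synonyms took beta-glucosidases from 2 carriers to 4, and WRKY and PUB genes from 1 to 2. Cytochrome P450 genes went from 7 to 8 and cell wall genes from 8 to 9. The count of CArG boxes was not run. No paired analysis was possible because each complex has 1 peak list. Unknown depth limits every count, since a region missing from a list cannot be told apart from one not called.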
